A study of Rattus norvegicus with 24 samples.

Results

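Genes of mitochondrial respiration, mitochondrial protein synthesis and mitochondrial protein import were followed in RBEC4 cells, a rat brain endothelial line, after exposure to silver nanoparticles. The genes were taken by a rule on their symbols, which was set with earlier results of these data known. The rule took those beginning Nduf, Sdha to Sdhd, Uqcr, Cox4 to Cox8, Atp5, Mrpl or Mrps with a number, Timm or Tomm, and Cyc1. The array carried 148 such probes of its 22523, each for a different gene. Of these, 71 belonged to the respiratory chain, 59 to the mitochondrial ribosome and 18 to the import machinery. Sdhaf2, Sdhaf3 and Timmdc1 share the letters of the rule although they are assembly factors, and none of the 3 reached the detection limit used here.

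The study exposed nearly confluent cultures for 18 h to 1 ppm silver particles, and all 24 arrays came from the same line. PVP10 received 10 nm particles coated with polyvinylpyrrolidone (5 arrays), PVP75 the same coating at 75 nm (5 arrays), citrate10 and citrate75 citrate-coated particles of these sizes (5 arrays each), and control no particles (4 arrays). Total RNA was hybridised to an Illumina expression BeadChip, which measures each gene as the brightness of beads carrying its probe. The question was whether size and coating change how the cells respond, and the labels do not say whether the arrays of a group came from separate cultures, so the p-values cover only how much these arrays vary.

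The respiratory chain passes electrons from NADH and succinate through complexes I to IV to oxygen, and the proton gradient this builds drives ATP synthase. Nearly all subunits are encoded in the nucleus, made in the cytosol, and taken into mitochondria through the TOM channel of the outer membrane and the TIM channels of the inner membrane. A small set of subunits is encoded in mitochondrial DNA and made inside the organelle by its own ribosome, whose proteins are also imported. Brain endothelial cells form the blood-brain barrier and are known for a high mitochondrial content.

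Levels below are log2 intensities after background correction and normalization, in which 1 unit is a doubling, and levels of different probes are not compared with each other. A probe was kept where its detection p, the chance that background alone gives such a signal, was under 0.01 on 4 or more arrays. By this limit 37 of the 148 members were kept (25%), against 2774 of 22523 probes on the array (12.3%). The kept members were 21 of 71 for the respiratory chain, 10 of 59 for the mitochondrial ribosome and 6 of 18 for import. A further 105 members were detected on no array and 6 on 1 to 3 arrays. Atp5f1b, Sdha, Cox6c and Uqcrfs1, which encode well-known subunits of ATP synthase and of complexes II, IV and III, were detected on no array, so most of the machinery had no measured level here. Of the 37, 31 were detected on all 24 arrays. Tomm20 was detected on 4 arrays, Cox8a and Ndufv3 on 5 each, Cox7a2l on 17, Ndufb7 on 20 and Mrpl21 on 21, and for these part of the values lie near background.

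Each array had 2128 to 2576 detected probes, and arrays correlated with their group at a median r of 0.991 or more except PVP75 replicate 3, at 0.982, so results that rest on PVP75 are given with and without it. The arrays lay on 2 BeadChips that each held all 5 groups, and 0 of the 37 members differed between the chips at an adjusted p under 0.05 in limma (3 at an unadjusted p under 0.05), against 30 of 2774 probes. The groups were split unevenly: chip 1 held 1 control array and 4 PVP75 arrays, and chip 2 held 3 control arrays and 1 PVP75 array. The defining markers of the labelled cell type were thinly covered: 2 of 13 endothelial markers on the array were kept (Tie1 and Thbd) and 0 of 6 brain endothelial transporters. Markers of pericytes (5), fibroblasts (5), microglia (4) and oligodendrocytes (4) were kept for none. Of 6 astrocyte markers Slc1a2, a glutamate transporter, was kept, and its level on a linear scale was 442 to 1184 in PVP10, 370 to 548 in PVP75, 106 to 170 in citrate10, 42.4 to 58.1 in citrate75 and 38.2 to 43.8 in control. Of 8 neuron markers 3 were kept, with summed levels of 85.6 to 110 in PVP10 and 91.8 to 106 in control. In PVP10 against control, limma called Thbd lower (log2 fold change -0.39), Slc1a2 higher (4.20), the neuron marker Gad2 lower (-0.39) and the neuron marker Nefm higher (0.25). The part of any change in cell make-up in the results below was not tested, and with RNA from a whole culture fewer cells of a kind and less RNA per cell cannot be told apart.

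Promoters of 3 members that differed in PVP10 are shown because they hold binding motifs of NRF1 and of ETS-family factors (which include GABP), known activators of nuclear genes for mitochondrial proteins. They are RefSeq sequences of the rat build GRCr8, from 250 bases before to 50 bases after the gene's start, read along the gene. Timm23 lies at chr16:7442570-7442869 on the minus strand, Mrpl32 at chr17:55260401-55260700 on the plus strand and Atp5me at chr14:1464610-1464909 on the plus strand. Capitals mark the NRF1 letters GCGCANGCG and the ETS letters CCGGAAG, searched on both strands, so that an ETS match on the other strand reads CTTCCGG and NRF1 matches of both strands can overlap.
Timm23: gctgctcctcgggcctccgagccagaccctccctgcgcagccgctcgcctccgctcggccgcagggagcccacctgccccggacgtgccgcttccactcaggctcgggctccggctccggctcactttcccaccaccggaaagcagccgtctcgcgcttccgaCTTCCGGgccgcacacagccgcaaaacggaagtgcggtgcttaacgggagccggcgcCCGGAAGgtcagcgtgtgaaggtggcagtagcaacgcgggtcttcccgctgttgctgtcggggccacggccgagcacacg
Mrpl32: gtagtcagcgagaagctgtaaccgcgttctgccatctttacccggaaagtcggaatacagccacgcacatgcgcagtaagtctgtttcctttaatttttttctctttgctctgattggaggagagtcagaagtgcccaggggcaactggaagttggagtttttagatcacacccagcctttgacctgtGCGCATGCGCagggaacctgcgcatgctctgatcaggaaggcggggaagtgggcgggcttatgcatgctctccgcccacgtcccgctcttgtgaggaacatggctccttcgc
Atp5me: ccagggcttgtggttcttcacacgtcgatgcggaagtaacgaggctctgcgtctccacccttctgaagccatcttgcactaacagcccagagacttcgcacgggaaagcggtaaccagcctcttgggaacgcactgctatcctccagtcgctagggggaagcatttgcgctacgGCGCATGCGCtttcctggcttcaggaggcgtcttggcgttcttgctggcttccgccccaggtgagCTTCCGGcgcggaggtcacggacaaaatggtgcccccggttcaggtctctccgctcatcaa
Timm23 has 2 ETS matches, Mrpl32 has 1 run of overlapping NRF1 matches, and Atp5me has such a run and 1 ETS match. The promoters of Atp5f1d, Atp5mc1, Cox5a, Cox7b, Ndufaf2 and Ndufs3, which were also called in PVP10 against control, held neither the NRF1 nor the ETS letters. Promoters were found for 34 of the 37 kept members and for 127 of all 148. The NRF1 letters occurred in 9 of the 34 (26.5%) and 31 of the 127 (24.4%), against 6.26% of 27457 gene promoters in the table. The ETS letters occurred in 15 of the 34 (44.1%) and in 33.9% of the 127, against 9.22% of all promoters. The YY1 letters AAGATGGCG were found in 2 of the 34 (5.88%) and 15 of the 127 (11.8%), against 1.93% of all promoters; among the 93 members that were not kept they were found in 13 (14%). Among members called higher in PVP10 against control 3 of 6 promoters held the NRF1 letters, among those called lower 2 of 7, and among those not called 4 of 21. For the ETS letters these counts were 2 of 6, 1 of 7 and 12 of 21. With the shorter NRF1 letters GCGCATG they were 3 of 6, 1 of 7 and 2 of 21, and letters of other lengths moved them again, so no order is read from such small counts. A match describes the letters in this window and shows no binding.

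Most of the members' differences from control were found in PVP10, and they ran in both directions. At an adjusted p under 0.05 in limma, 15 of the 37 members were called, 7 higher and 8 lower (40.5%). Over all kept probes 41.5% were called in this comparison, 20.1% higher and 21.4% lower, so the members' share lay near that of the array as a whole. The differences were small: called members changed by 1.18-fold to 1.73-fold, and 1 of 37 passed 1.5-fold (2.70%), against 424 of 2774 probes (15.3%). All 15 had the same direction on both BeadChips, though on chip 1 this rests on 1 control array and 2 PVP10 arrays. Between PVP10 and control 12 members did not overlap, 32.4% of the 37 against 34.9% of all kept probes. By class, 8 of 21 respiratory chain members fell and 3 rose, 3 of 10 ribosomal members rose and 0 fell, and 1 of 6 import members rose. The median log2 fold change was -0.10 for the respiratory chain, 0.18 for the ribosome and -0.02 for import, beside -0.01 over all kept probes; whether the classes differ from each other was not tested.

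**Figure D1:**
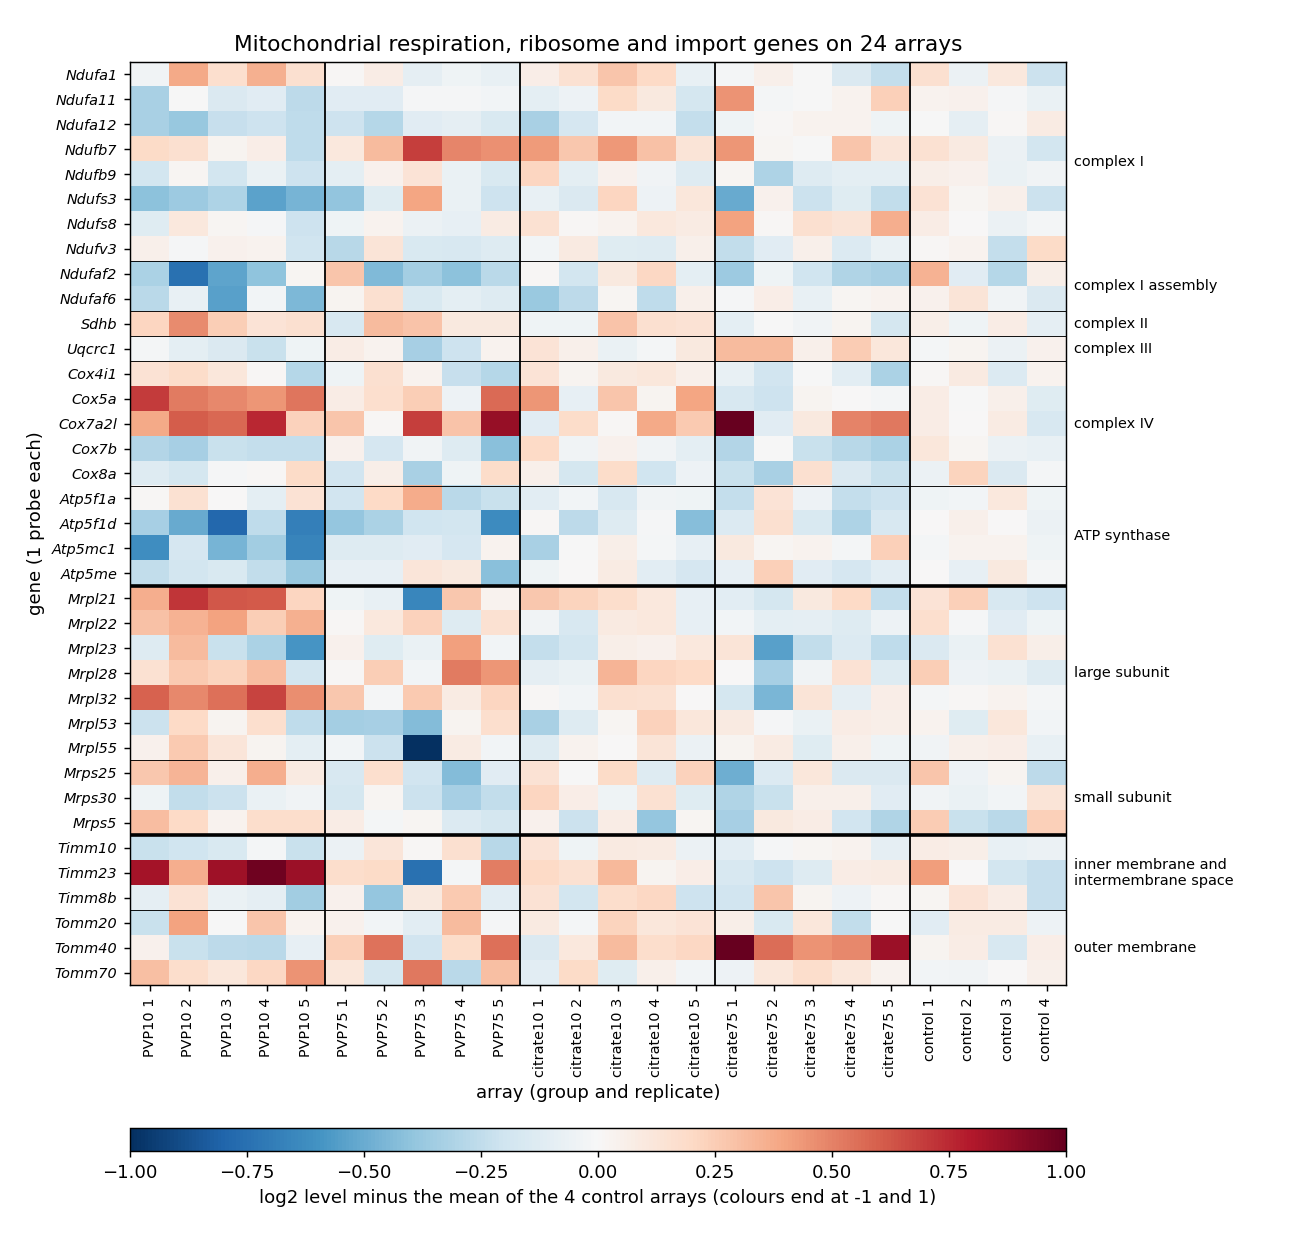
Log2 level of each of the 37 kept members (rows, by class) on each of the 24 arrays (columns, by group), with the mean of the 4 control arrays subtracted; red is higher and blue lower than control, and colours end at -1 and 1. Mrpl32 and Timm23 are red across the PVP10 columns and Atp5mc1 and Atp5f1d blue, while the citrate columns have no such block apart from Tomm40 in citrate75.

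Within ATP synthase, the rotary enzyme that makes ATP, 3 of 4 kept subunits fell in PVP10, beside 21.4% of all kept probes. Of its 13 genes on the array 9 were detected on no array. Atp5f1d, the delta subunit of the central stalk, had levels of 8.61, 8.44, 8.16, 8.69 and 8.25 in PVP10, against 8.94, 8.99, 8.94 and 8.88 in control. The groups did not overlap, and the difference passed the test (limma, log2 fold change -0.52, SE 0.12, adjusted p = 0.000631). PVP75 arrays had 8.56, 8.62, 8.74, 8.75 and 8.31, also all below control, though this difference did not pass (limma, log2 fold change -0.37, SE 0.12, adjusted p = 0.0793), and without PVP75 replicate 3 it was -0.40 with an adjusted p of 0.0663. With array weights it passed (adjusted p = 0.0388). Citrate10 and citrate75 averaged 8.78 ± 0.18 and 8.82 ± 0.17 (SD, n = 5 each), and in both some arrays lay above the lowest control array. Atp5mc1, 1 of the genes for the c subunit of the membrane ring, had 12.02, 12.48, 12.18, 12.30 and 11.99 in PVP10 and 12.63, 12.68, 12.68 and 12.60 in control. Every PVP10 array was below every control array (limma, log2 fold change -0.47, SE 0.09, adjusted p = 0.000193). Atp5me, the small e subunit of the membrane part, was lower by a narrow margin (limma, log2 fold change -0.25, SE 0.10, adjusted p = 0.0457), and that call was lost under 16 of 32 other settings. The fourth, Atp5f1a, the alpha subunit of the catalytic head, did not pass (log2 fold change 0.04, 95% interval -0.19 to 0.27).

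Complex I, the entry point for electrons from NADH, had 2 of 8 kept subunits lower in PVP10 and none higher, beside 21.4% and 20.1% of all kept probes. Ndufs3, a core subunit of the matrix arm, had 8.86, 8.90, 8.96, 8.73 and 8.80 in PVP10, against 9.42, 9.28, 9.32 and 9.05 in control. The 2 groups did not overlap (limma, log2 fold change -0.42, SE 0.12, adjusted p = 0.00695). Ndufa12, an accessory subunit of that arm, fell by less, without overlap (limma, log2 fold change -0.29, SE 0.08, adjusted p = 0.00438). The remaining 6 did not pass, with log2 fold changes of 0.20 for Ndufa1, 0.04 for Ndufb7, 0.01 for Ndufv3, -0.04 for Ndufs8, -0.12 for Ndufb9 and -0.19 for Ndufa11. Both kept complex I assembly factors were lower. Ndufaf2, which resembles Ndufa12 in sequence and acts late in assembly, had 5.64, 5.21, 5.43, 5.55 and 5.98 in PVP10 and 6.30, 5.84, 5.67 and 6.01 in control. These ranges overlapped because of PVP10 replicate 5 (limma, log2 fold change -0.40, SE 0.14, adjusted p = 0.0262), and the difference was -0.07 on chip 1, with 1 control array, and -0.51 on chip 2. The call was lost without PVP10 replicate 2 or 3 or control replicate 1 or 4, and without the detection filter. Ndufaf6 was lower with overlapping arrays (limma, log2 fold change -0.27, SE 0.11, adjusted p = 0.0446), a call lost under 15 of 32 other settings.

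Complex IV, cytochrome c oxidase, was split, with 2 of 5 kept genes higher and 1 lower, beside 20.1% and 21.4% of all kept probes. Cox5a, a nuclear-encoded subunit facing the matrix, had 9.14, 8.96, 8.92, 8.89 and 8.98 in PVP10, against 8.51, 8.44, 8.50 and 8.32 in control. No array of 1 group reached into the range of the other (limma, log2 fold change 0.54, SE 0.11, adjusted p = 0.000275). Cox7a2l, which links complex III to complex IV in supercomplexes, had 5.28, 5.51, 5.48, 5.66 and 5.13 in PVP10 and 4.98, 4.91, 4.98 and 4.74 in control. All PVP10 arrays were above all control arrays (limma, log2 fold change 0.49, SE 0.18, adjusted p = 0.0261), but control levels were near background, with detection on 1 of 4 control arrays. Without background correction its log2 fold change was 0.17 and the call was lost, as it was under 8 of 32 other settings in all, among them those without PVP10 replicate 3 or 4 or control replicate 3 or 4. Cox7b, a small membrane subunit, had 11.89, 11.85, 11.97, 11.95 and 11.95 in PVP10 and 12.30, 12.21, 12.13 and 12.12 in control, with no overlap (limma, log2 fold change -0.27, SE 0.09, adjusted p = 0.0224), a call lost without control replicate 1 or without the detection filter. Cox4i1 and Cox8a did not pass, at 0.05 and -0.01. Sdhb, the iron-sulfur subunit of complex II, was higher at the edge of the threshold (limma, log2 fold change 0.24, SE 0.10, adjusted p = 0.0488), a call lost under 18 of 32 other settings. Uqcrc1, a core subunit of complex III, did not pass (-0.10).

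**Figure D2:**
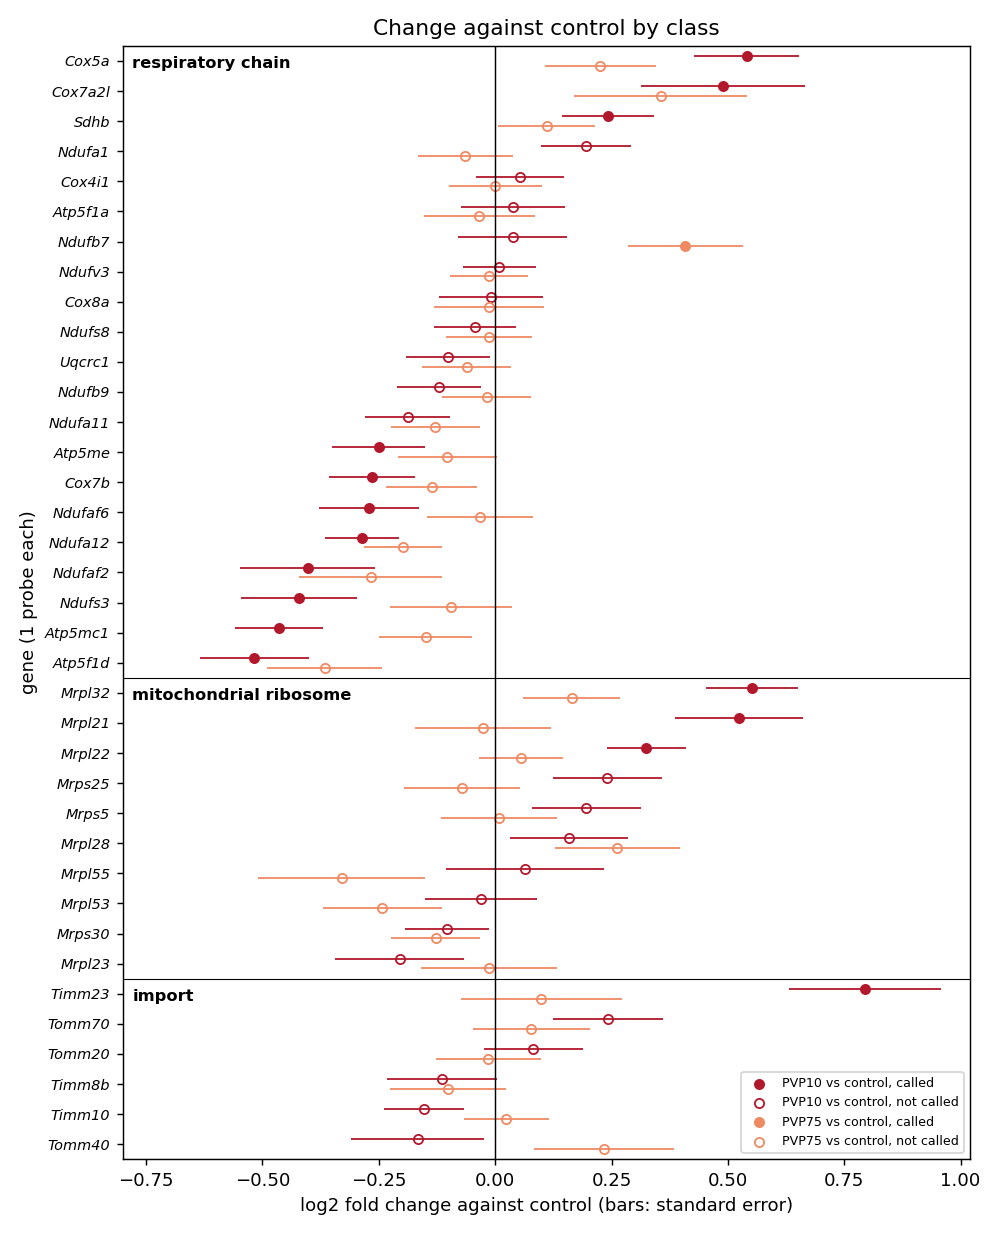
Log2 fold change against control of each kept member in PVP10 (red) and PVP75 (orange), by class, with bars of 1 standard error and filled points for an adjusted p under 0.05 in limma. The filled red points run from 0.79 for Timm23 to -0.52 for Atp5f1d, and the single filled orange point is Ndufb7.

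Among the 10 kept members named as mitochondrial ribosomal proteins, 3 rose in PVP10 and 0 fell, beside 20.1% and 21.4% of all kept probes. The 3 are among the 7 kept members named for the large subunit, and subunits were assigned by symbol alone. Chchd1, a protein of the small ribosomal subunit that the symbol rule does not take in, fell in PVP10 (log2 fold change -0.37). Mrpl32 had 11.36, 11.25, 11.32, 11.45 and 11.23 in PVP10, against 10.75, 10.78, 10.80 and 10.75 in control. The lowest PVP10 array stood above every array of the other 4 groups (limma, log2 fold change 0.55, SE 0.10, adjusted p = 4.05e-05). Mrpl22 had 10.62, 10.67, 10.73, 10.57 and 10.68 in PVP10 and 10.49, 10.31, 10.21 and 10.28 in control, again with no overlap (limma, log2 fold change 0.32, SE 0.09, adjusted p = 0.0027). Mrpl21 had 5.50, 5.85, 5.76, 5.75 and 5.35 in PVP10, against 5.27, 5.38, 4.98 and 4.93 in control. The lowest PVP10 array lay just below the highest control array (limma, log2 fold change 0.52, SE 0.14, adjusted p = 0.00273), and for this dim probe the log2 fold change was 0.19 without background correction, with the call unchanged. The 3 kept members named for the small subunit, Mrps25, Mrps5 and Mrps30, did not pass, at 0.24, 0.20 and -0.10. The other 4 named for the large subunit lay between -0.21 for Mrpl23 and 0.16 for Mrpl28.

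Timm23, the channel-forming subunit through which proteins with a presequence cross the inner membrane, had the highest log2 fold change of the 37 in PVP10. Its levels were 6.83, 6.36, 6.84, 6.97 and 6.85 in PVP10, against 6.41, 6.003, 5.81 and 5.77 in control. In 4 of 5 PVP10 arrays it exceeded every control array, and PVP10 replicate 2 lay just below control replicate 1 (limma, log2 fold change 0.79, SE 0.16, adjusted p = 0.000241). Without background correction the log2 fold change was 0.42 and the call was unchanged. Tomm70, a receptor of the outer membrane, was higher in all 5 PVP10 arrays than in any control array but did not pass (limma, log2 fold change 0.24, SE 0.12, adjusted p = 0.104). Tomm40, the outer membrane channel, Tomm20, another receptor, and the small chaperones Timm10 and Timm8b of the intermembrane space also did not pass, at -0.17, 0.08, -0.15 and -0.11.

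**Figure D3:**
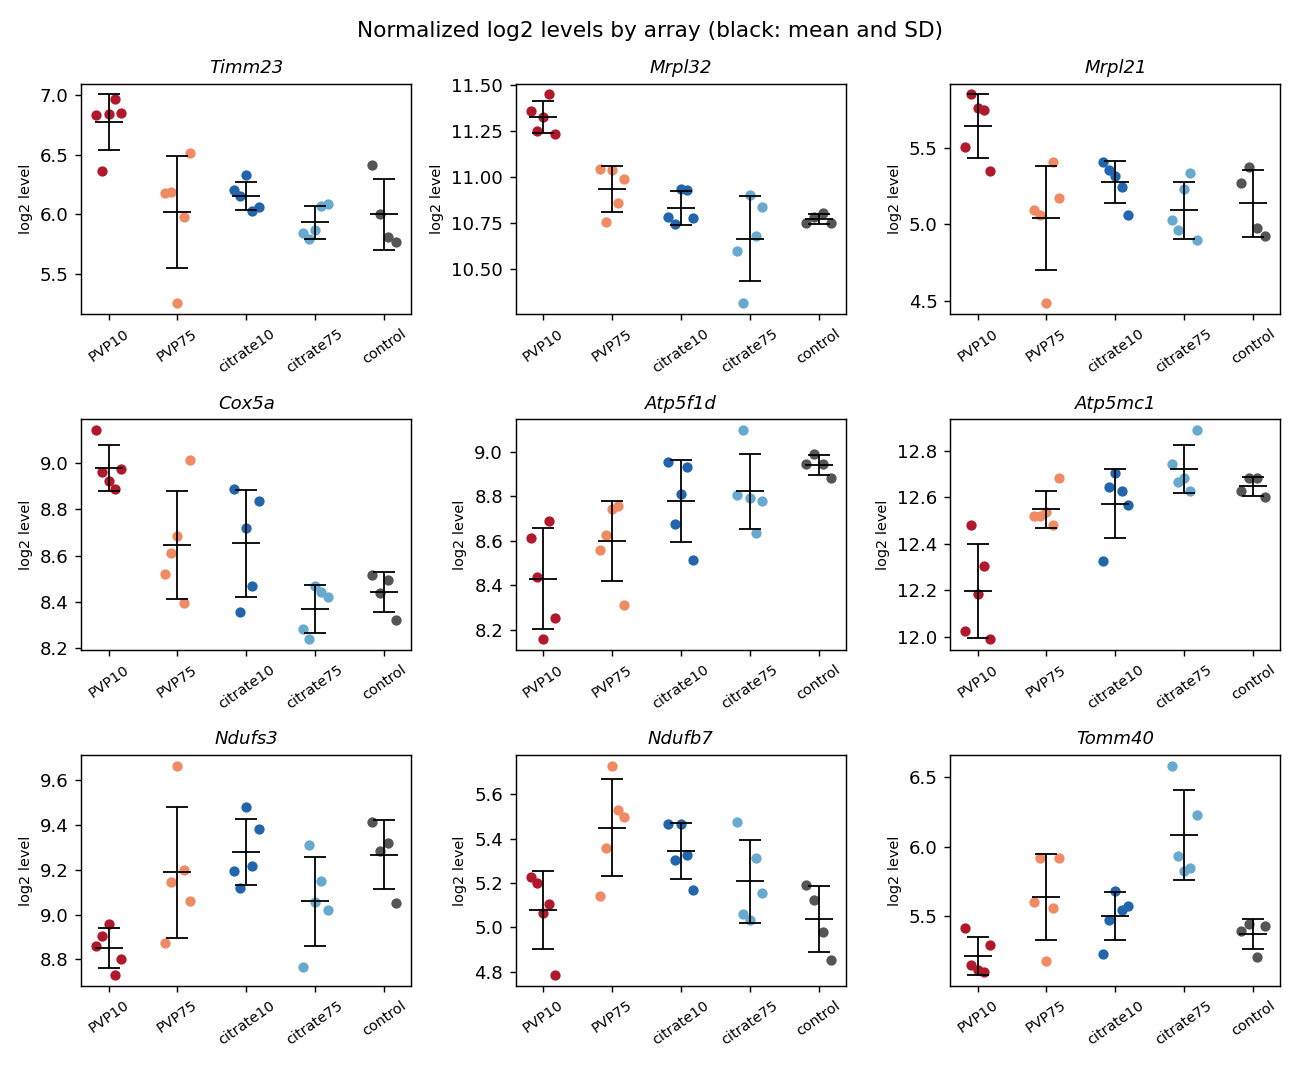
Normalized log2 level on each array of 9 members that differed in at least 1 comparison or stood out in citrate75, by group, with black bars for the group mean and SD (n = 5 per particle group, n = 4 control); each panel has its own axis, which does not start at 0. PVP10 points lie apart from all other groups for Mrpl32, and Tomm40 is highest in citrate75.

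The other 3 exposures gave 1 call in all. In PVP75 against control 1 of 37 members was called, and it was higher (2.70%), beside 5.3% of all kept probes, 2.56% higher and 2.74% lower. This was Ndufb7, an accessory subunit of complex I, with 5.14, 5.36, 5.73, 5.53 and 5.50 in PVP75, against 5.19, 5.13, 4.98 and 4.85 in control. Atp5f1d was the 1 member of 37 whose PVP75 and control arrays did not overlap, beside 9.44% of all kept probes. For Ndufb7 the ranges overlapped by 1 PVP75 array (limma, log2 fold change 0.41, SE 0.12, adjusted p = 0.0496), and the log2 fold change was 0.14 without background correction. Without PVP75 replicate 3 the adjusted p was 0.0998, and the call was lost under 21 of 31 other settings. Under 3 of these the 1 member called was another and was lower in PVP75: Ndufa12 without background correction (-0.19) and in the authors' normalized table (-0.19), and Atp5f1d with array weights (-0.39). With PVP75 replicate 3 left out, Tomm40 joined Atp5f1d in not overlapping with control, 2 of 37 beside 12.3% of all kept probes. In citrate10 against control 0 of 37 members passed in limma (2 at an unadjusted p under 0.05), beside 0.036% of all kept probes, and 0 were without overlap, beside 1.77%. The smallest p in citrate10 was again that of Ndufb7, with 5.47, 5.30, 5.47, 5.33 and 5.17 in citrate10 (limma, log2 fold change 0.31, SE 0.12, adjusted p = 0.997).

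In citrate75 against control 0 of 37 members passed in limma (5 at an unadjusted p under 0.05), beside 0% of all kept probes, so no kept probe was called. Tomm40 had the largest difference of the 37 there, with 6.58, 5.93, 5.82, 5.85 and 6.23 in citrate75, against 5.40, 5.45, 5.21 and 5.43 in control. Every citrate75 array was above every control array, yet the adjusted p did not pass (limma, log2 fold change 0.69, SE 0.15, adjusted p = 0.157). The difference was 1.03 on chip 1, with 1 control array, and 0.41 on chip 2. In limma over both chips the adjusted p was 0.0334 without PVP75 replicate 3 and 0.00369 with array weights. Under the remaining 30 of 32 other settings Tomm40 did not pass in limma. Over the 32 settings its adjusted p reached 0.834, and its log2 fold change lay between 0.29 and 0.77. Uqcrc1 also did not overlap, with 11.39, 11.39, 11.14, 11.34 and 11.19 in citrate75, against 11.06, 11.11, 11.03 and 11.13 in control (limma, log2 fold change 0.22, SE 0.09, adjusted p = 0.542). These were 2 of 37 non-overlapping members, beside 3.75% of all kept probes.

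The particles of both sizes were next set against each other within a coating. In PVP10 against PVP75, 11 of 37 members were called, 7 higher and 4 lower, beside 28% of all kept probes, 13% higher and 15% lower. All 4 ribosomal calls were higher in PVP10: Mrpl21 (0.55), Mrpl32 (0.39), Mrpl22 (0.27) and Mrps25 (0.31). Mrps25 had 7.41, 7.47, 7.18, 7.50 and 7.22 in PVP10 and 6.97, 7.30, 6.95, 6.70 and 7.02 in PVP75, with 1 PVP75 array inside the PVP10 range. Timm23 was higher in PVP10, against PVP75 levels of 6.18, 6.19, 5.25, 5.98 and 6.51, 1 of which lay inside the PVP10 range (limma, log2 fold change 0.69, SE 0.16, adjusted p = 0.00134). It was also higher without PVP75 replicate 3, the lowest of these arrays, with a log2 fold change of 0.52.

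In the respiratory chain, Cox5a (0.31) and Ndufa1 (0.26) were higher in PVP10 than in PVP75, and Atp5mc1 (-0.32), Ndufs3 (-0.33) and Ndufb7 (-0.37) were lower. Ndufa1, an accessory subunit of complex I, had 8.95, 9.36, 9.16, 9.34 and 9.14 in PVP10 and 8.995, 9.06, 8.90, 8.94 and 8.91 in PVP75, with overlapping ranges. Tomm40 was lower in PVP10, with 5.41, 5.15, 5.11, 5.10 and 5.29 in PVP10 and 5.61, 5.92, 5.18, 5.56 and 5.92 in PVP75 (limma, log2 fold change -0.40, SE 0.14, adjusted p = 0.0311), with overlap, and this call was lost without background correction. Without PVP75 replicate 3, calls were lost for Mrps25, Ndufa1 and Ndufs3, leaving 8 members. Without PVP10 replicate 5, 5 members were left, all higher, beside 23.9% of all kept probes: every lower call (Atp5mc1, Ndufs3, Ndufb7 and Tomm40) was lost, as were Cox5a and Mrps25. Timm23, Mrpl21, Mrpl22 and Mrpl32 kept their calls in PVP10 against PVP75 under all 31 other settings, and Atp5mc1 lost its call only without PVP10 replicate 5. Mrpl22 and Mrpl32 were the members that did not overlap between PVP10 and PVP75, beside 16.7% of all kept probes, and without PVP75 replicate 3 Tomm40 joined them, beside 20.6%. For citrate, 0 of 37 members differed between citrate10 and citrate75 in limma (5 at an unadjusted p under 0.05), beside 0.144% of all kept probes. Tomm40 and Cox4i1 did not overlap there, 2 of 37 beside 2.63% of all kept probes, with log2 fold changes of -0.57 and 0.20.

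Between coatings of the same size, most calls came at 10 nm. In PVP10 against citrate10, 13 of 37 members were called, 6 higher and 7 lower, beside 41.7% of all kept probes, 20.4% higher and 21.4% lower. In 5 of 37 members the groups did not overlap, beside 30% of all kept probes. Timm23 (0.62), Mrpl32 (0.49), Mrpl21 (0.37), Mrpl22 (0.35), Cox5a (0.32) and Mrps5 (0.28) were higher in PVP10. Timm23 did not overlap, since the citrate10 arrays had 6.20, 6.15, 6.32, 6.02 and 6.06. Mrps5, a small subunit protein of the mitochondrial ribosome, had 6.66, 6.55, 6.39, 6.53 and 6.53 in PVP10, against 6.39, 6.14, 6.42, 5.97 and 6.37 in citrate10, with overlap. Ndufs3 (-0.43), Ndufaf2 (-0.40), Atp5mc1 (-0.38), Atp5f1d (-0.35), Cox7b (-0.28), Ndufb7 (-0.27) and Timm10 (-0.20) were lower. For Timm10 the levels were 10.99, 11.01, 11.05, 11.18 and 10.99 in PVP10, against 11.35, 11.17, 11.30, 11.29 and 11.15 in citrate10, with overlap. Timm23, Mrpl22, Mrpl32, Atp5mc1, Cox7b and Ndufs3 kept their calls in PVP10 against citrate10 under all 32 other settings, while Ndufb7 lost its call under 21, Mrps5 under 12 and Timm10 under 9. The comparison shares the PVP10 arrays with those against control and PVP75, so agreement among the 3 is not separate evidence.

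At 75 nm, 2 of 37 members differed between coatings, both lower in PVP75, beside 14.1% of all kept probes, 6.63% higher and 7.5% lower. Ndufa12 was the 1 member of 37 without overlap, beside 7.86% of all kept probes, and it did not pass (-0.18). Tomm40 had 5.61, 5.92, 5.18, 5.56 and 5.92 in PVP75, against 6.58, 5.93, 5.82, 5.85 and 6.23 in citrate75 (limma, log2 fold change -0.46, SE 0.14, adjusted p = 0.0219). The difference was -0.68 on chip 1 and 0.08 on chip 2, where 1 PVP75 array lay, so its sign turned between chips. Uqcrc1 had 11.16, 11.12, 10.75, 10.88 and 11.12 in PVP75 and 11.39, 11.39, 11.14, 11.34 and 11.19 in citrate75, where PVP75 replicate 1 reached just into the citrate75 range (limma, log2 fold change -0.28, SE 0.09, adjusted p = 0.0266). Without PVP75 replicate 3 neither passed, with adjusted p of 0.0783 for Tomm40 and 0.0961 for Uqcrc1, while Mrpl28 did, higher in PVP75 (0.38, adjusted p = 0.0405). The Tomm40 call was lost under 4 of 31 other settings and the Uqcrc1 call under 7. The count itself moved with the background step: with an offset of 50, without background correction and in the authors' normalized table it was 6 of 37 (16.2%), 1 higher and 5 lower, beside 15.3%, 14.5% and 14.5% of all kept probes. The added calls under these 3 settings were Mrpl32, higher in PVP75, and Ndufa11, Ndufa12 and Ndufs8, lower.

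The PVP75 against citrate75 comparison shares no array with PVP10 against control. Of the 15 members called in PVP10 against control, 11 had the same sign in PVP75 against citrate75 (73.3%) and 0 were called in both. Over all 1152 probes called in PVP10 against control the share with the same sign was 88.5%, with 334 called in both. The members' count without PVP75 replicate 3 was again 11 of 15, with 0 called in both, and the share over 1181 called probes was 88%.

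The size difference depended on the coating for 3 of 37 members, all with a negative value, beside 15.2% of all kept probes, 7.07% positive and 8.11% negative. The quantity tested was the PVP10 minus PVP75 difference less the citrate10 minus citrate75 difference. For Ndufs3 it was -0.55, with -0.33 within PVP and 0.23 within citrate (limma, SE 0.17, adjusted p = 0.0224), a call lost without citrate75 replicate 1 or without the detection filter. For Ndufb7 it was -0.51, with -0.37 within PVP and 0.14 within citrate (limma, SE 0.16, adjusted p = 0.0246), a call lost without PVP10 replicate 5 or citrate10 replicate 1, with array weights and without the detection filter. For Cox7b it was -0.36 (limma, SE 0.12, adjusted p = 0.0455), with -0.13 within PVP and 0.23 within citrate, and this call was lost under 20 of 31 other settings. When PVP75 replicate 3 was left out the values were -0.44 for Ndufs3 (adjusted p = 0.039) and -0.44 for Ndufb7 (adjusted p = 0.0469), which passed, and -0.34 for Cox7b (adjusted p = 0.0779), which did not. With array weights Timm23 passed with a positive value (0.52, adjusted p = 0.0497).

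**Figure D4:**
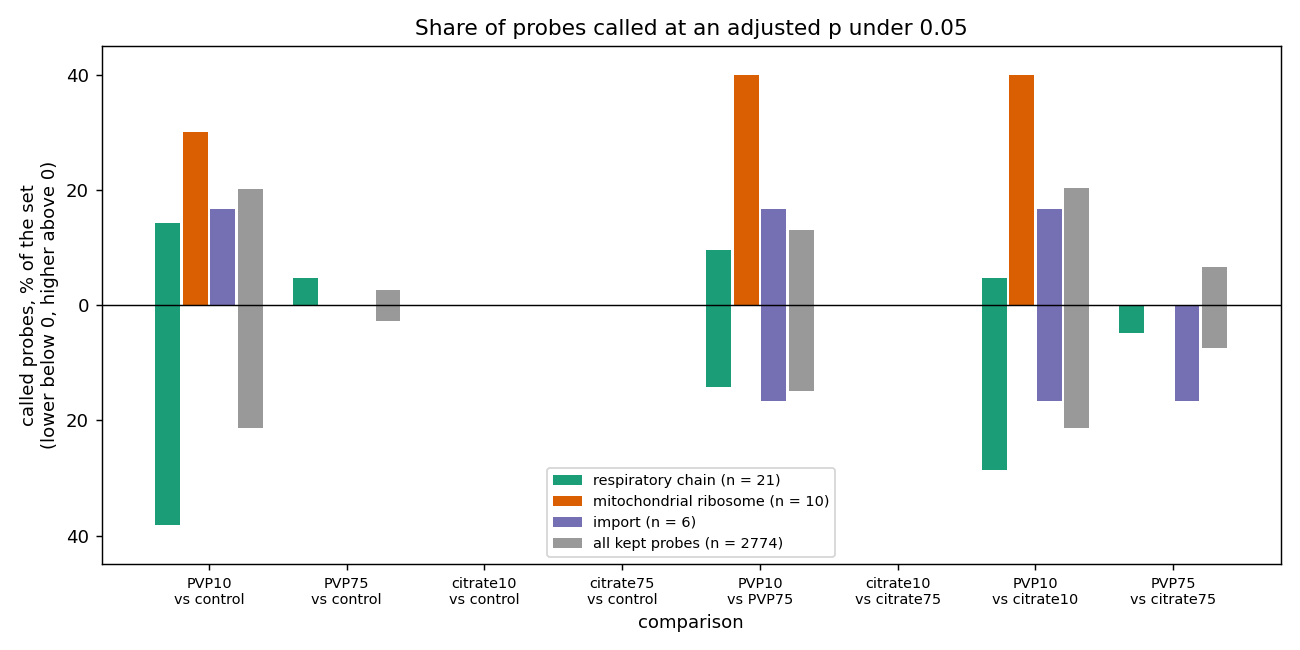
Percent of the kept members of each class, and of all 2774 kept probes (grey), called higher (above 0) or lower (below 0) at an adjusted p under 0.05 in limma, for the 8 comparisons of 2 groups. In PVP10 against control 38.1% of the respiratory chain fell and 30% of the ribosome rose, while all kept probes were 20.1% higher and 21.4% lower; the bars of the citrate comparisons with control are at or near 0.

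Other mitochondrial genes, taken from 7 lists outside the symbol rule, gave 40 kept genes (1 of them in 2 lists), of which 14 were called in PVP10 against control, 4 higher and 10 lower (35%). The shares over all kept probes were 41.5% called, 20.1% higher and 21.4% lower. Whether the share of these 40 genes differs from the array's was not tested, and the counts by list rest on 2 to 9 genes each. Among nuclear regulators and factors for mitochondrial DNA, 2 of 6 fell and 1 rose: Pprc1, a coactivator of the PGC-1 family (-1.02), Twnk, the mitochondrial DNA helicase (-0.65), and the transcription factor Yy1 (0.41). Among 7 assembly factors and electron carriers 2 fell, Etfdh, which passes electrons from fatty acid oxidation to ubiquinone (-0.44), and Coa3, an assembly factor of complex IV (-0.27). Of 5 translation factors and tRNA synthetases 3 fell and 1 rose, led by the asparaginyl-tRNA synthetase Nars2 (-0.51), Chchd1, a protein of the small ribosomal subunit (-0.37), and Noa1 (-0.35). Of 9 further import and processing genes 2 fell and 1 rose: Immt, the core of the MICOS complex that shapes cristae (-0.49), Pmpca, a subunit of the presequence peptidase (0.45), and Samm50, which inserts barrel proteins into the outer membrane (-0.30). Of 6 fission, fusion and mitophagy genes Fundc1, a mitophagy receptor, fell (-0.36) and Mfn1, a fusion protein, rose (0.34). Neither of 2 chaperone and protease genes nor any of 6 mitochondrial carriers passed in limma. In PVP75, citrate10 and citrate75 against control, 0 of the 40 passed in limma (4, 0 and 2 at an unadjusted p under 0.05), beside 5.3%, 0.036% and 0% of all kept probes.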

How the data were processed

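Expression was measured on Illumina BeadChips in 24 RBEC4 samples, grouped by their labels. The authors deposited a table of non-normalized probe intensities with a detection p-value for each probe and array, made with GenomeStudio 2011.1 per the submitters' processing notes, and a normalized intensity table whose array medians lay between 88.8 and 88.9. The sources used here do not give further steps behind it. Gene symbols came from the platform annotation, in which 13793 probes have 1 symbol and 8730 have none.

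The intensities were background-corrected with neqc in limma 3.58.1 (R 4.3.3), with negative control statistics inferred from the detection p-values, an offset of 16, quantile normalization and log2. Of 22523 probes, 2774 with a detection p under 0.01 on 4 or more arrays were kept. One model held the 5 groups and the BeadChip. Each of 9 comparisons was tested with lmFit and eBayes, with Benjamini-Hochberg adjustment over all 2774 probes and calls at an adjusted p under 0.05. Precision depends on how many arrays a group has, on how the groups were split over the chips and on the comparison. Typical standard errors, taken as the median over probes, were 0.10 to 0.15 on the log2 scale, the largest for the interaction. The procedure was tested on simulated data.

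The members, the other gene lists and the genes described were chosen with earlier results of these data known. In each class, values on every array are given for up to 6 members called in PVP10 against control with the largest change, for those called in another comparison and for the smallest p in each citrate exposure. No pairing of the samples by replicate number was seen. Over 46 pairs of arrays with the same number in different groups the median correlation of deviations was 0.01 (-0.20 to 0.31), and 1 pair passed 0.1. The labels only number the arrays, so these correlations cannot exclude a pairing. Alternatives were an offset of 50, no background correction, the authors' normalized table, no detection filter, no chip term, chip 2 alone, a replicate block, array weights, and each array left out. Promoters were RefSeq sequences of GRCr8, and the motif letters were shortened to the forms printed here after longer forms had been counted.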

Additional observations from a re-analysis of the deposited data

Results flagged for a closer look

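Single arrays that stood apart from the rest of their group were looked for among 185 groups of 4 or 5 values, and 7 were found; chance flags about 1 in 20 groups. PVP75 replicate 3 had a Mrpl55 level of 8.22, with the other PVP75 arrays at 9.34 or above. PVP75 replicate 1 had a Ndufaf2 level of 6.24, with the next array at 5.69, and PVP75 replicate 5 had an Atp5mc1 level of 12.68, with the next at 12.54. In PVP10, replicate 2 had a Timm23 level of 6.36, with the others at 6.83 or above, and replicate 5 had a Ndufv3 level of 4.64, with the others at 4.82 or above. In citrate75, replicate 2 had an Atp5me level of 12.94, with the next at 12.63. In control, replicate 3 had an Atp5f1a level of 6.13, with the next at 5.998. Of these members, 4 were called in PVP10 against control. The Timm23 and Atp5mc1 calls held without each array in turn, while the Ndufaf2 and Atp5me calls (adjusted p = 0.0262 and 0.0457 in limma) were lost under 5 and 16 of 32 other settings, among them several that left out 1 array.

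The test of whether the size difference changes with the coating was passed by 3 of 37 members in limma (8.11%). Over all kept probes 15.2% passed, 7.07% with a positive and 8.11% with a negative value. The PVP10 minus PVP75 difference less the citrate10 minus citrate75 difference was -0.55 for Ndufs3 (adjusted p = 0.0224), -0.51 for Ndufb7 (adjusted p = 0.0246) and -0.36 for Cox7b (adjusted p = 0.0455). Without PVP75 replicate 3 they were -0.44 (adjusted p = 0.039), -0.44 (adjusted p = 0.0469) and -0.34 (adjusted p = 0.0779) in the same order, so the Cox7b call was lost.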

How the results depend on the processing

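Counts of called members were recomputed under 32 other settings, 24 of which left out 1 array each, and no called log2 fold change turned sign. Of 45 calls, 18 held under every setting run; in PVP10 against control these were Atp5f1d, Atp5mc1, Cox5a, Mrpl21, Mrpl22, Mrpl32, Ndufa12 and Timm23. Without the detection filter, which adds many more tests, members were counted over all 148 and not over the 37 kept. In PVP10 against control the count was 8 (15 as reported), beside 4.03% of 22523 probes (41.5% of kept probes as reported). In PVP75 against control it was 0 (1), beside 0.315% (5.3%). The other counts were 5 in PVP10 against PVP75 (11), 6 in PVP10 against citrate10 (13), 0 in PVP75 against citrate75 (2) and 0 for the interaction (3). As reported, the shares of all kept probes called were 28%, 41.7%, 14.1% and 15.2% in the same order. In this section, a count without its share over all probes shows only how calls moved and is not read as a result about the members. In PVP75 against citrate75 the count was 6 with an offset of 50, 6 without background correction, 6 in the authors' normalized table (16.2% of 37, beside 15.3%, 14.5% and 14.5% of all kept probes) and 4 with a replicate block (10.8%, beside 14.6%). In PVP75 against control it was 0 with an offset of 50, and without background correction, in the authors' normalized table and with array weights the 1 call was a different member, lower in PVP75. With array weights the interaction lost Ndufb7 and gained Timm23. Array weights gave 1 call in citrate75 against control and 1 in citrate10 against citrate75, where dropping the chip term also gave 1. The cause was not tested.

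Leaving out 1 array gave 11 to 15 calls in PVP10 against control (29.7% to 40.5% of the kept members), beside 35.6% to 42.6% of all kept probes. It also gave 0 to 1 in PVP75 against control, beside 2.67% to 6.09% of all kept probes. It gave 0 to 0 in citrate10 against control, 0 to 1 in citrate75 against control and 0 to 1 in citrate10 against citrate75. It gave 5 to 11 in PVP10 against PVP75, with 7 without PVP10 replicate 2 and 5 without PVP10 replicate 5, where 5 were higher and 0 lower. It gave 8 to 15 in PVP10 against citrate10, with 8 without citrate10 replicate 4. It gave 0 to 3 in PVP75 against citrate75, with 0 without citrate75 replicate 1 and 1 without PVP75 replicate 3 or citrate75 replicate 4. It gave 1 to 4 for the interaction, with 1 without PVP10 replicate 5, citrate10 replicate 1 or citrate75 replicate 1. With all arrays, 28% of all kept probes were called in PVP10 against PVP75 and 41.7% in PVP10 against citrate10. The shares were 14.1% in PVP75 against citrate75 and 15.2% for the interaction. How these shares moved with each array left out is not given here.

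With the replicate number as a block, PVP10 against control had 13 calls (35.1%, beside 40.7% of all kept probes). PVP10 against PVP75 had 11 and PVP10 against citrate10 11, and no pairing by these numbers was seen. Chip 2 alone gave 12 calls in PVP10 against control (32.4%, beside 37.9% of all kept probes) and 9 in PVP10 against citrate10. It could not be run where PVP75, with 1 array there, was compared. Probes near background had smaller fold changes without background correction, so the sizes for Timm23, Mrpl21, Cox7a2l, Ndufaf2, Ndufb7 and Tomm40 depend on that step.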

Other observations

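Averaged over the 10 kept ribosomal members, the log2 level relative to the control mean lay between 0.01 and 0.29 on the PVP10 arrays, between -0.24 and 0.04 on the PVP75 arrays and between -0.03 and 0.09 on the control arrays. Averaged over the 21 kept respiratory chain members it lay between -0.15 and -0.02 on the PVP10 arrays and between -0.05 and 0.06 on the control arrays. Averaged over the 6 kept import members it lay between 0.08 and 0.18 on the PVP10 arrays, between -0.07 and 0.16 on the PVP75 arrays, between 0.02 and 0.17 on the citrate10 arrays, between 0.0664 and 0.15 on the citrate75 arrays and between -0.08 and 0.0658 on the control arrays. The ribosomal and respiratory chain averages overlapped between PVP10 and control. The import average did not overlap between PVP10 and control, nor, narrowly, between citrate75 and control. In PVP10 Timm23 had a log2 fold change of 0.79, while the median of the 6 import members was -0.02. In citrate75 Tomm40 had 0.69, while their median was -0.01, so neither average describes the 6 as a class. In limma 1 of the 6 was called in PVP10 and 0 in citrate75, and these averages were not compared with averages over other probes.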
